A study of Mus musculus with 16 samples.

Results

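The genes described here are 10 immediate early transcription factors: Fos, Fosb, Fosl1, Fosl2, Jun, Junb, Egr1, Egr2, Atf3 and Myc. They were chosen by gene name, with earlier results of these data known. Every probe on the array that carries 1 of these names was taken. That gave 11 distinct probes of 55681 and 10 gene names of 34836. All 10 genes passed the filter on low signal and stood among the 20317 genes tested. Immediate early genes are switched on within minutes of a stimulus such as serum, stretch, wounding or stress, without the need for new protein. FOS and JUN proteins pair to form AP-1, EGR proteins are zinc finger factors, ATF3 is a stress-induced relative of CREB, and MYC pairs with MAX to promote growth and proliferation. In muscle these genes are known to respond when satellite cells, the resident stem cells, leave quiescence, and also to the tissue dissociation that is needed to collect the cells.

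RNA was measured on 16 one-color arrays in 4 groups of 4: dispersed myoblasts at 48 and at 72 hr after isolation, and myofiber-associated myoblasts at the same times. All cells came from male C57Bl/6J mice of 11 to 13 weeks, and the labels name no transgene or drug. Dispersed myoblasts grew on gelatin without their fiber, with 1 mouse per preparation. Myofiber-associated myoblasts grew on explanted fibers and were stripped off with trypsin at harvest, with 2 mice per preparation, and replicate 10 of the 48-hr group was a pool of preparations. The labels give the same harvest text for every sample. The myofiber-associated arrays lay on 1 slide and the dispersed arrays on the other, so that culture, slide and harvest cannot be told apart. Within each slide the arrays of the 72-hr groups stood in columns 1 and 2 and those of the 48-hr groups in columns 3 and 4, so that time and column cannot be told apart either. Between 54.0% and 63.5% of the gene probes of an array were well above background. The number of arrays limits the precision.

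Myoblast markers were present in all groups: all 9 on the list were well above background on every array. At 48 hr their linear signal summed to 155000 to 239000 in myofiber-associated against 97600 to 112000 in dispersed myoblasts. At 72 hr it was 170000 to 222000 against 99200 to 134000. Of the 9, 2 were called higher and 3 lower in myofiber-associated myoblasts at 48 hr (median -0.267). At 72 hr 3 were called higher and 0 lower by limma (median 0.467). Adult muscle fiber markers stood apart. In dispersed myoblasts the linear signal summed over the 9 genes ran from 10500 to 28800 at 48 hr and from 4230 to 6580 at 72 hr. Myofiber-associated preparations, which the labels describe as free of fiber RNA, ran from 995000 to 1470000 at 48 hr and from 185000 to 928000 at 72 hr. Of these 9 markers, 9 were called higher in myofiber-associated myoblasts at 48 hr and 8 at 72 hr. Ckm, the muscle creatine kinase, was higher by 7.63 ± 0.34 at 48 hr on the log2 scale (SE, limma). Endothelial markers went the other way: 7 of 8 were called lower in myofiber-associated myoblasts at both times, with summed signals of 6490 to 14200 against 15000 to 46500. Schwann cell markers summed to 677 to 1200 against 2080 to 5370, and 3 of 4 tested were called lower at 48 hr and 2 at 72 hr. Summed fibroblast markers (39200 to 191000) overlapped between the cultures at both times, with 1 of 7 called higher and 1 lower at 48 hr, and 1 higher and 4 lower at 72 hr (median -1.33). The summed leukocyte signal at 48 hr was 21400 to 29300 with the fiber against 16100 to 19200 without it, but of 7 leukocyte markers tested 1 was called higher and 3 lower (median -0.353). At 72 hr the sums overlapped, with 1 called higher and 2 lower. Pericyte and smooth muscle markers summed to 5800 to 7370 against 9590 to 17300 at 48 hr and overlapped at 72 hr, with 3 and 1 of 6 called lower. Beside these counts, 16.1% of all genes tested were called higher and 27.0% lower at 48 hr, and 11.5% and 15.6% at 72 hr. Several of the counts lie near these shares. The part of these other cells in the differences given here was not tested. In such bulk samples fewer cells of a type and less RNA per cell cannot be told apart.

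Each gene was read by 1 probe of 60 bases, except Fosl2 with 2. On mouse build mm9 the probes lay at chr12:86817900-86817959 for Fos, chr7:19888168-19888227 for Fosb, chr19:5455496-5455555 for Fosl1, chr4:94716928-94716987 for Jun and chr8:87501881-87501940 for Junb. Those of Egr2, Atf3 and Myc lay at chr10:67004798-67004857, chr1:192994547-192994606 and chr15:61821417-61821476. All 11 probes were well above background on all 16 arrays, and none was saturated or an outlier. Fos was printed in 10 spots per array, and their log2 signals had an SD of 0.0296 to 0.0828 within an array. This covers spot-to-spot noise within an array only.

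Promoters were read for the 7 genes that the RefSeq promoter table (GRCm38.p6) holds: Fos, Fosb, Fosl2, Jun, Junb, Egr2 and Atf3. The 250 bases before the start were searched on both strands for TGACGT (the core of the cAMP response element, CRE), TGANTCA (AP-1), CACGTG (E-box), TATAAA, and the CArG box of serum response factor and the MEF2 site by name. They are shown for the 4 genes in which a stimulus or muscle element was found, so that a reader can see which of these motifs each window holds. Sites outside the 250 bases, or with letters other than these patterns, were not searched. Capitals mark the motifs. Fos has a CRE core 66 to 61 bases before the start and a TATA box, Jun a MEF2 site, Egr2 a CArG box and a CRE core, and Atf3 a MEF2 site beside a CRE core.
Fos, chr12:85473640-85473889, plus strand: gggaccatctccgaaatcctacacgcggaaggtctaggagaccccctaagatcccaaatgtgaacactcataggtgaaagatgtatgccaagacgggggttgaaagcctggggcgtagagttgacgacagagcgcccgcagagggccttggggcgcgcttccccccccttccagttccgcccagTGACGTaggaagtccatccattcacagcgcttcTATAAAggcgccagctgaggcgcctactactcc
Jun, chr4:95052223-95052472, minus strand: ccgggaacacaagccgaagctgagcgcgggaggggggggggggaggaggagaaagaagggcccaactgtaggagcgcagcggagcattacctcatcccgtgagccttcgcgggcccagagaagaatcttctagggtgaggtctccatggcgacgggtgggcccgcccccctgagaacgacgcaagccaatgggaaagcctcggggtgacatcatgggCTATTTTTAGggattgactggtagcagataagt
Egr2, chr10:67537619-67537868, plus strand: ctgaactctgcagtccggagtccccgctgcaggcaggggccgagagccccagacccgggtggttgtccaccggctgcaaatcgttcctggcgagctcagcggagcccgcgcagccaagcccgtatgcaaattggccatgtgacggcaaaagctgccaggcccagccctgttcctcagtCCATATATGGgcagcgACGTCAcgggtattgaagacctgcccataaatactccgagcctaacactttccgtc
Atf3, chr1:191183334-191183583, minus strand: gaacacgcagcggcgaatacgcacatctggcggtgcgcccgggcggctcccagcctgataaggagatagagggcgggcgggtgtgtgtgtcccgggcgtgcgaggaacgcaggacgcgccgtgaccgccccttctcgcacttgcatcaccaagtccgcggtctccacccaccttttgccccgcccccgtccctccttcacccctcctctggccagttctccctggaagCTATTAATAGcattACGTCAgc

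The table lists 5 starts for Egr2, of which 3, all within 61 bases, share both motifs, and 1 of the 3 is printed. Of all 32851 promoters in the table, 6.47% hold the CRE core, 1.47% a CArG box, 2.92% a MEF2 site, 12.4% the TATA box, 6.75% the AP-1 motif and 6.02% the E-box. None of the 6 motifs was found in the window of Fosb, Fosl2 or Junb. A match describes the letters only.

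The first question is how the genes differed between the cultures at 1 time. At 48 hr 6 of the 10 genes were called higher in myofiber-associated than in dispersed myoblasts (Fos, Fosb, Jun, Junb, Egr1 and Atf3), and Fosl2 was called lower. At 72 hr 5 were called higher (the same genes without Jun), and Fosl1 and Fosl2 were called lower. A gene is called here at a limma p adjusted over all genes of less than 0.01. Many genes differed between the cultures: at 48 hr 16.1% of all genes tested were called higher and 27.0% lower, and at 72 hr 11.5% and 15.6%. The median log2 difference of the 10 genes was 1.04 at 48 hr and 0.80 at 72 hr, where the median over all genes tested was -0.123 and -0.0229. The sizes ran from 22.2-fold for Fos to values not told apart from 0 for Egr2 and Fosl1 at 1 of the times.

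**Figure D1:**
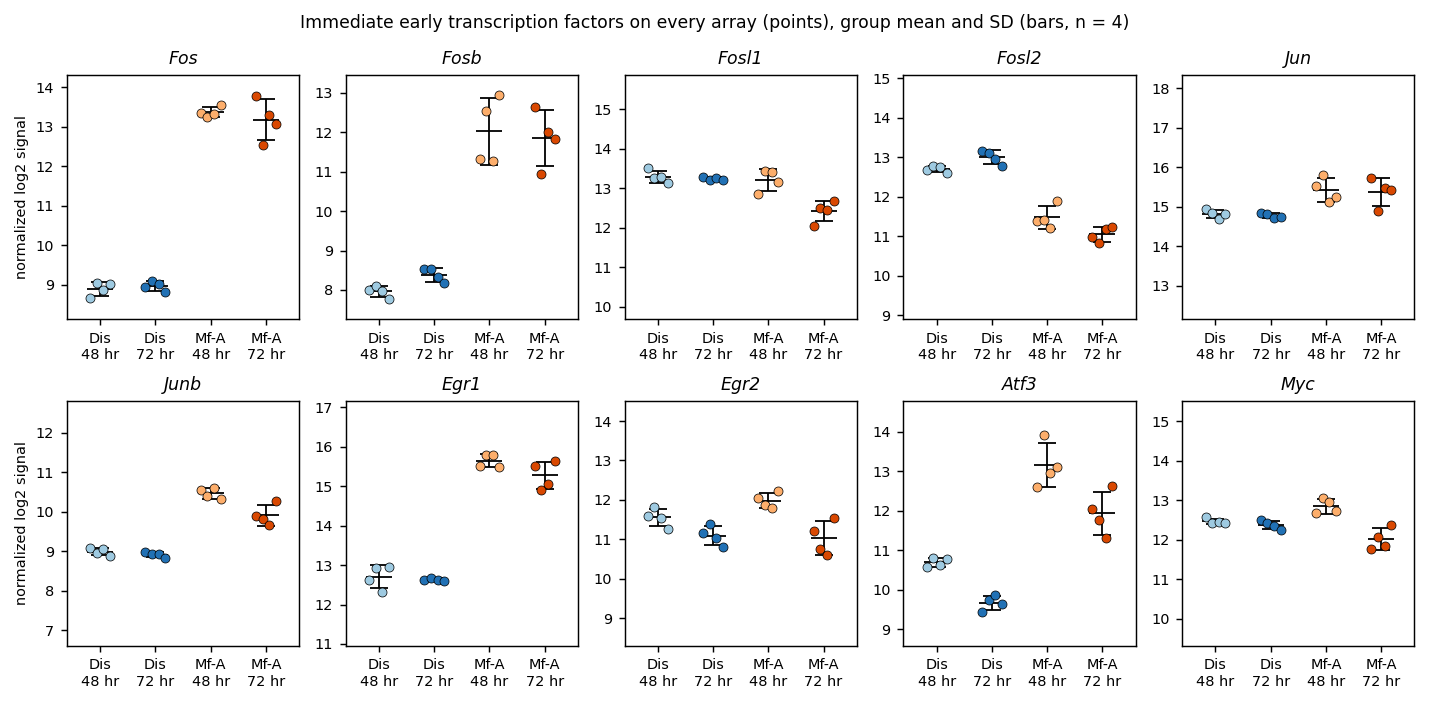
Normalized log2 signal of each gene (y axis, the same span of log2 units in every panel) on the 16 arrays, for both cultures at 48 and 72 hr (Dis, dispersed; Mf-A, on the fiber). Points are arrays and bars the mean and SD of 4 arrays. All Fos, Fosb, Egr1, Junb and Atf3 points of myofiber-associated myoblasts lie above all dispersed points, and all Fosl2 points lie below them.

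Among the FOS family, the partners of JUN in AP-1, Fos showed the largest difference. Its normalized log2 signal was 8.66, 9.04, 8.86 and 9.03 in dispersed myoblasts at 48 hr and 8.95, 9.09, 9.02 and 8.81 at 72 hr. On the fiber it was 13.34, 13.26, 13.33 and 13.55 at 48 hr and 13.79, 12.54, 13.29 and 13.08 at 72 hr. The cultures stood far apart with no overlap, and the times overlapped within each culture. At 48 hr the log2 difference was 4.47 ± 0.11 (SE, limma, adjusted p = 3.36e-07), which is 22.2-fold with a 95% interval of 18.7 to 26.4. At 72 hr it was 4.21 ± 0.23 (adjusted p = 1.48e-05), or 18.4-fold with an interval of 12.7 to 26.8. By the size of the difference Fos ranked 226 among 20317 genes at 48 hr and 185 at 72 hr.

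Fosb, its close relative with a similar activation domain, gave 8.01, 8.11, 7.96 and 7.77 in dispersed myoblasts at 48 hr, and 8.52, 8.53, 8.33 and 8.16 at 72 hr. In cells stripped from the fiber it gave 11.33, 12.54, 11.27 and 12.94 at 48 hr and 12.63, 10.94, 12.00 and 11.82 at 72 hr. The cultures did not overlap, but the myofiber-associated arrays were much more scattered (SD 0.85 and 0.70) than the dispersed ones (0.14 and 0.18). The log2 difference was 4.06 ± 0.37 at 48 hr (limma, adjusted p = 5.92e-05) and 3.46 ± 0.32 at 72 hr (adjusted p = 0.000131). In folds that is 16.6 and 11.0.

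Fosl1 and Fosl2 (FRA-1 and FRA-2), which lack the strong activation domain of FOS, did not follow Fos. Fosl1 measured 13.51, 13.25, 13.29 and 13.14 without the fiber at 48 hr, and between 13.20 and 13.29 at 72 hr. In myofiber-associated myoblasts it measured 12.86, 13.43, 13.42 and 13.15 at 48 hr and 12.05, 12.51, 12.46 and 12.68 at 72 hr. The cultures overlapped at 48 hr (log2 difference -0.08, 95% interval -0.41 to 0.25, adjusted p = 0.646). At 72 hr all myofiber-associated arrays lay below all dispersed arrays, with a log2 difference of -0.82 ± 0.13 (limma, adjusted p = 0.00145).

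Fosl2 was the only gene of the 10 that was called lower in myofiber-associated myoblasts at both times. Its brighter probe, at chr5:32460076-32460135, gave 12.68, 12.79, 12.75 and 12.60 in dispersed myoblasts at 48 hr and 13.18, 13.11, 12.96 and 12.77 at 72 hr. On the fiber it gave 11.38, 11.42, 11.21 and 11.91 at 48 hr and 10.98, 10.82, 11.18 and 11.23 at 72 hr. The log2 difference was -1.23 ± 0.14 at 48 hr (limma, adjusted p = 0.000214) and -1.95 ± 0.12 at 72 hr (adjusted p = 2.36e-05). The gap was thus 2.34-fold at 48 hr and 3.87-fold at 72 hr, and no arrays overlapped between cultures. The dim probe, at chr5:32455088-32455147, with log2 signals of 4.59 to 6.30, did not show the same at 48 hr. There its difference was 0.28 ± 0.10 (adjusted p over all probes = 0.0389), against -0.72 ± 0.26 at 72 hr (adjusted p = 0.0546). With the mean of both probes the gene remained called lower, at -0.47 at 48 hr and -1.34 at 72 hr.

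Of the JUN family, Jun measured 14.94, 14.84, 14.70 and 14.81 without the fiber at 48 hr, and between 14.72 and 14.84 at 72 hr. In cells stripped from the fiber it measured 15.52, 15.80, 15.13 and 15.26 at 48 hr and 15.72, 14.89, 15.49 and 15.43 at 72 hr. The groups did not overlap at either time, although replicate 2 came close at 72 hr. The log2 difference was 0.60 ± 0.15 at 48 hr (limma, adjusted p = 0.00730) and 0.61 ± 0.16 at 72 hr (adjusted p = 0.0164), so that nearly the same size passed the threshold at 48 hr but not at 72 hr. The call at 48 hr was near the threshold. It was lost on leaving out any 1 of the 4 dispersed 48-hr arrays or myofiber-associated replicate 7, with log2 differences of 0.56 to 0.64. It was also lost with the normexp correction (adjusted p = 0.0113) and without the filter on low signal (0.0156), both with 34836 genes tested. At 72 hr Jun was called without myofiber-associated replicate 2 (0.77, adjusted p = 0.000936) and in 1 fit of all 16 arrays (0.00663).

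Junb, a JUN relative with weaker activation and a role in keeping cells from proliferating, had a larger difference. Its log2 signal was 9.08, 8.96, 9.04 and 8.88 without the fiber at 48 hr, and between 8.82 and 8.97 at 72 hr. In myofiber-associated myoblasts it was 10.56, 10.39, 10.59 and 10.32 at 48 hr and 9.90, 9.82, 9.65 and 10.28 at 72 hr. The cultures were separate at both times, by 1.47 ± 0.09 at 48 hr (2.78-fold, limma, adjusted p = 7.81e-06) and by 1.0 ± 0.13 at 72 hr (2.0-fold, adjusted p = 0.000610). Over the 16 arrays the genes most like Junb included Mybpc1 (Pearson's r 0.995) and Adssl1 (0.990). Mybpc1 and Adssl1 encode a myosin-binding protein and an adenylosuccinate synthase of muscle fibers.

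Egr1, which is induced through serum response factor by growth factor signaling, was read by a probe on chromosome 18, from 35024395 to 35024454 (mm9). It gave 12.61, 12.93, 12.32 and 12.96 in dispersed myoblasts at 48 hr. It measured 12.60 to 12.67 there at 72 hr. On the fiber it measured 15.50, 15.77, 15.79 and 15.49 at 48 hr and 15.50, 14.91, 15.04 and 15.62 at 72 hr. Cultures were again apart on all arrays, by 2.93 ± 0.16 at 48 hr (7.64-fold, limma, adjusted p = 4.32e-06) and 2.64 ± 0.16 at 72 hr (6.23-fold, adjusted p = 1.95e-05). Egr2, a relative known from Schwann cell myelination, behaved otherwise. It gave 11.59, 11.81, 11.55 and 11.27 in dispersed and 12.04, 11.87, 11.80 and 12.22 in myofiber-associated myoblasts at 48 hr, a difference of 0.43 ± 0.14 (adjusted p = 0.0254). At 72 hr it gave 11.17, 11.39, 11.04 and 10.80 against 11.20, 10.76, 10.60 and 11.55, with a difference of -0.07 and a 95% interval of -0.58 to 0.43 (adjusted p = 0.807). The culture groups overlapped at both times.

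Atf3, a repressor that is induced by many kinds of cell stress, differed both by culture and by time. It measured 10.57, 10.79, 10.62 and 10.76 in dispersed myoblasts at 48 hr and 9.44, 9.73, 9.85 and 9.62 at 72 hr. In cells stripped from the fiber it measured 12.59, 13.91, 12.96 and 13.11 at 48 hr and 12.04, 11.76, 11.30 and 12.62 at 72 hr. The order of the 4 group means was dispersed 72 hr (9.66), dispersed 48 hr (10.69), myofiber-associated 72 hr (11.93) and myofiber-associated 48 hr (13.14). Neighbors in this order did not overlap except for the pair of myofiber-associated groups, where replicate 4 at 72 hr just exceeded replicate 7 at 48 hr. The culture difference was 2.46 ± 0.25 at 48 hr (5.50-fold, limma, adjusted p = 9.95e-05) and 2.27 ± 0.25 at 72 hr (4.82-fold, adjusted p = 0.000333).

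Myc gave 12.57, 12.43, 12.46 and 12.42 in dispersed myoblasts at 48 hr and 12.49, 12.43, 12.35 and 12.26 at 72 hr. In myofiber-associated myoblasts it gave 12.67, 13.07, 12.96 and 12.72 at 48 hr and 11.78, 12.09, 11.85 and 12.38 at 72 hr. The myofiber-associated mean thus lay above the dispersed mean at 48 hr and below it at 72 hr, and neither difference passed the threshold. The log2 difference was 0.39 ± 0.10 at 48 hr (limma, adjusted p = 0.0119) and -0.36 ± 0.13 at 72 hr (adjusted p = 0.0556). Myc was called at 48 hr without myofiber-associated replicate 7 (0.45, limma, adjusted p = 0.00912) or replicate 10 (0.43, 0.00701), and at 72 hr without replicate 4 (-0.48, 0.00736). With the normexp correction, where 34836 genes were tested, it was called at 48 hr (0.39, adjusted p = 0.00849).

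**Figure D2:**
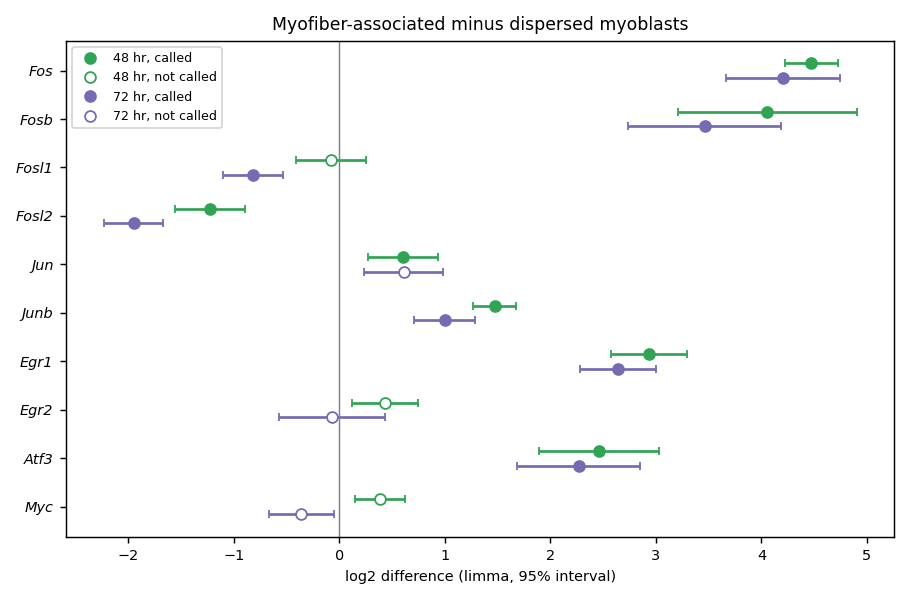
Log2 difference between myofiber-associated and dispersed myoblasts (x axis) for each gene, at 48 and 72 hr, with 95% intervals from limma. Filled points have an adjusted p of less than 0.01. Fos, Fosb, Egr1 and Atf3 lie between 2.27 and 4.47 at both times, and Fosl2 lies below 0 at both.

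Adult fiber markers differed between the cultures as well, and the arrays can be set side by side. At 72 hr the summed fiber signal of myofiber-associated replicates 1 to 4 was 259000, 707000, 185000 and 928000. Fos was highest on replicate 1 and lowest on replicate 2, so it did not follow the order of the fiber signal. Junb was highest on replicate 4 (10.28) and lowest on replicate 3 (9.65), which had the highest and the lowest fiber signal. Atf3 and Egr2 were likewise highest on replicate 4 (12.62 and 11.55) and lowest on replicate 3 (11.30 and 10.60). Myc and Fosl1 were lowest on replicate 1 (11.78 and 12.05). Replicate 3 measured 13.29 for Fos and 15.04 for Egr1, and its fiber signal was above that of every dispersed array. The order was not the same at 48 hr, where the fiber signal of replicates 7 to 10 was 1470000, 1170000, 1400000 and 995000. There Atf3 was lowest on replicate 7 (12.59) and Egr2 highest on replicate 10 (12.22), while Junb was lowest on replicate 10 (10.32). In dispersed myoblasts the summed fiber signal was lower at 72 hr without overlap, and on the same arrays the log2 difference with time was 0.07 for Fos and -1.02 for Atf3. The part of fiber RNA in these values was not tested.

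The second question is how the genes changed from 48 to 72 hr within a culture. In dispersed myoblasts only Atf3 was called: it was lower at 72 hr by a log2 difference of -1.02 ± 0.09 (2.03-fold, limma, adjusted p = 0.000237). In 1 fit of all 16 arrays, which share 1 estimate of the spread, this call was lost (adjusted p = 0.0245). With the slide row as a block Fosb was called as well (0.43, adjusted p = 0.00305). Of all genes tested, 7.38% were called higher and 6.32% lower. At a looser adjusted p of less than 0.05, which called 15.0% of all genes higher and 11.9% lower, Fosb (0.43 ± 0.10, adjusted p = 0.0185) and Fosl2 (0.30 ± 0.09, adjusted p = 0.0454) were higher as well. All 4 dispersed 72-hr arrays lay above all 48-hr arrays for Fosb. Without 72-hr replicate 8 both genes passed 0.01, with Fosb at 0.50 (adjusted p = 0.00823) and Fosl2 at 0.38 (0.00909). Of the other 7 genes, Egr2 had a difference of -0.46 ± 0.15 (adjusted p = 0.0532), and the rest lay between -0.08 and 0.07. The median of the 10 genes was -0.06, against 0.0226 over all genes.

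In myofiber-associated myoblasts all 10 genes had a lower mean at 72 hr, with a median log2 difference of -0.49 against 0.0627 over all genes tested. No gene of the 10 passed the threshold in limma, where 3.74% of all genes were called higher and 1.74% lower, and 6 were lower at an unadjusted p of less than 0.05. At an adjusted p of less than 0.05, which called 13.4% of all genes higher and 9.12% lower, 5 of the 10 were lower. Myc stood next to the threshold at -0.83 ± 0.16 (1.78-fold, adjusted p = 0.0108), and its 72-hr arrays all lay below its 48-hr arrays. Egr2 gave -0.96 ± 0.21 and Fosl1 -0.79 ± 0.18 (adjusted p = 0.0186 for both). Atf3 gave -1.21 ± 0.34 (adjusted p = 0.0377) and Junb -0.55 ± 0.14 (adjusted p = 0.0304). The other 5 were Fosl2 (-0.43), Egr1 (-0.37), Fos (-0.20), Fosb (-0.17) and Jun (-0.04). Groups overlapped between times for Atf3, Fosl2, Egr1, Fos, Fosb and Jun, and were separate for Myc, Egr2, Fosl1 and Junb. For these 4 the exact permutation test of 4 against 4 arrays, two-sided, gave p = 0.0286, the smallest it allows. In this culture 3 of the 10 genes passed the threshold without replicate 4 of the 72-hr group: Myc (-0.95, adjusted p = 0.00555), Egr2 (-1.13, 0.00660) and Junb (-0.67, 0.00867). In 1 fit of all 16 arrays Myc, Fosl1, Junb, Egr2 and Atf3 were all called lower (limma, adjusted p of 0.000163 to 0.00262). That fit pools the spread of this culture with the smaller spread of the dispersed arrays. The median SD of a gene was 0.216 and 0.180 here, against 0.0949 and 0.102 there. These calls are therefore not stronger evidence than the fit of this culture alone. Of 9 myoblast markers 2 were called higher and 0 lower from 48 to 72 hr in this culture (median 0.404). Most markers of several other cell types were lower over the same interval. Of the adult fiber markers 9 of 9 were below 0 (median -2.06, 1 called), of the endothelial markers 6 of 8 were called lower (median -2.41), of the fibroblast markers 2 of 7 (median -1.19), and 7 of 7 leukocyte markers were below 0 (median -1.35, 0 called by limma and 3 lower at an unadjusted p of less than 0.05). Of the fibroblast markers 2 were above 0. Of 6 pericyte and smooth muscle markers 1 was called higher and 1 lower (median -1.23). Their summed signal ran from 5800 to 7370 at 48 hr and from 6890 to 8650 at 72 hr. Of 4 Schwann cell markers tested 0 were called (median -0.378). The part of these other cells in the values of the 10 genes was not tested.

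**Figure D3:**
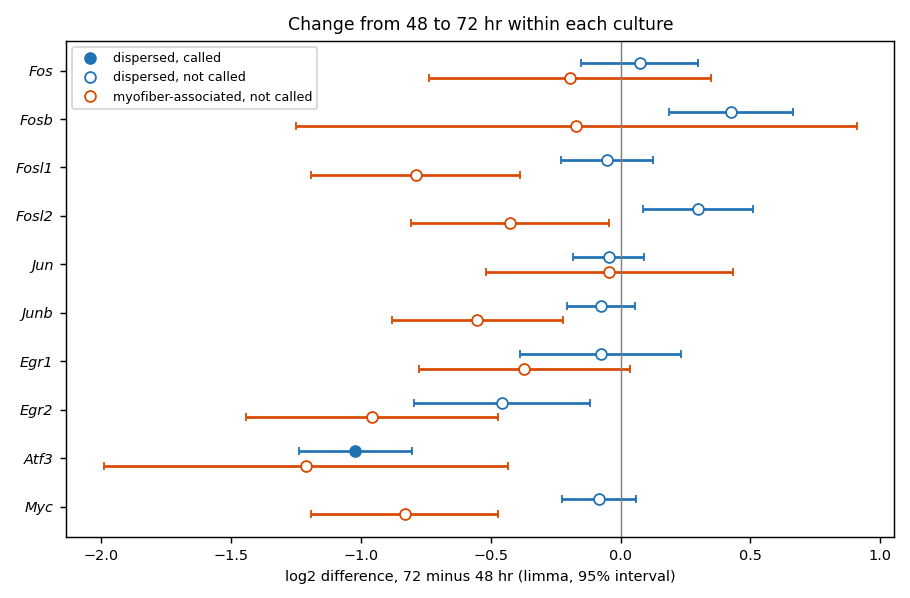
Log2 difference between 72 and 48 hr (x axis) for each gene in dispersed and in myofiber-associated myoblasts, with 95% intervals from limma. The filled point, Atf3 in dispersed myoblasts at -1.02, is the only one with an adjusted p of less than 0.01. All myofiber-associated points lie below 0 and have the wider intervals.

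Whether the cultures differed in their change with time was tested as an interaction, as the change in dispersed minus the change in myofiber-associated myoblasts. None of the 10 genes was called in limma, where 1.09% of all genes were called higher and 2.36% lower, and 4 were higher at an unadjusted p of less than 0.05. At an adjusted p of less than 0.05, which called 6.27% of all genes higher and 9.14% lower, the test gave Myc (0.75 ± 0.17, adjusted p = 0.0140), Fosl1 (0.74 ± 0.20, adjusted p = 0.0261) and Fosl2 (0.72 ± 0.20, adjusted p = 0.0270). For Fos the difference was 0.27 with a 95% interval of -0.31 to 0.85, and for Atf3 0.19 with an interval of -0.62 to 1.0. For Atf3, which was called in dispersed and not in myofiber-associated myoblasts, a difference between the cultures in its change was therefore not detected (adjusted p = 0.742). Myc was called without myofiber-associated 48-hr replicate 10 (0.79, adjusted p = 0.00724), and Myc (0.87, 0.00188) and Junb (0.60, 0.00434) without 72-hr replicate 4. Of the 10 differences 9 were above 0. Jun was at 0 (-0.0029), and its sign turned under the normexp correction and the scaling to the 75th percentile.

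Preparations of myofiber-associated myoblasts varied more than those of dispersed myoblasts. The median SD of a gene over all genes tested was 0.0949 and 0.102 in the dispersed groups at 48 and 72 hr, and 0.216 and 0.180 in the myofiber-associated groups. Fosb and Atf3 were the most scattered of the 10, with SDs of 0.85 and 0.56 at 48 hr and 0.70 and 0.55 at 72 hr in the myofiber-associated groups. The 10 genes did not deviate as 1 block. On myofiber-associated 48-hr replicate 8 Atf3 was 0.77 above its group mean and Fosb 0.52 above, while Fos was 0.11 below. Replicate 10, the pool, was 0.92 above the mean for Fosb and 0.03 below it for Atf3. At 72 hr replicate 4 had the highest value of 7 of the 10 genes and replicate 2 the lowest of 5, among them Fos, Fosb, Jun and Egr1. In dispersed myoblasts at 72 hr replicate 8 was lowest for 8 of the 10 genes, with a median deviation of -0.107.

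**Figure D4:**
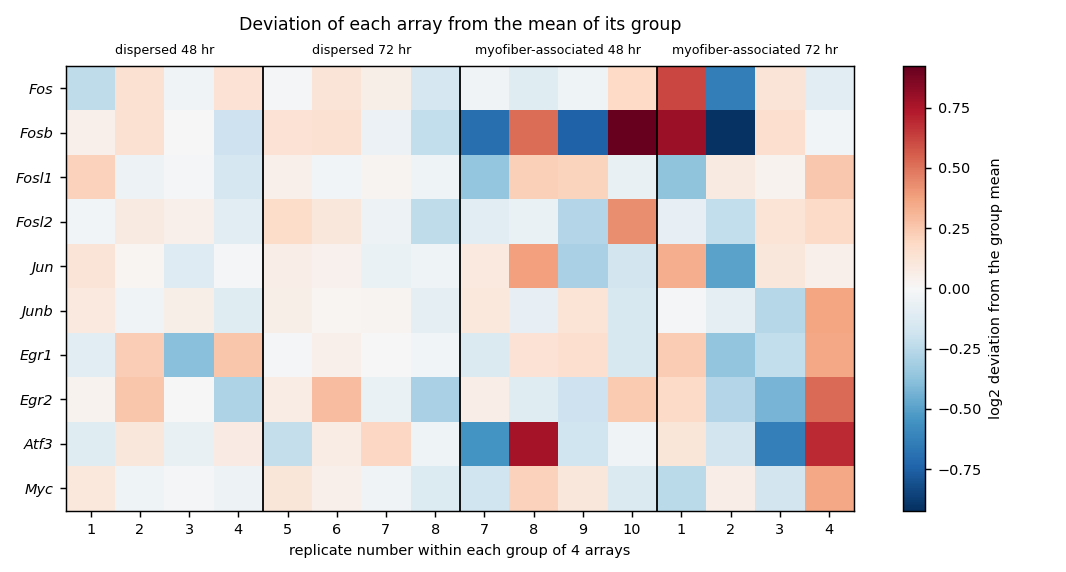
Log2 deviation of each array (columns, by group and replicate number) from the mean of its group of 4, for each gene (rows). Red is above and blue below the group mean. The dispersed arrays are pale, Fosb reaches 0.92 above its mean on myofiber-associated 48-hr replicate 10, and Fos, Fosb and Jun are lowest on 72-hr replicate 2.

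The patterns over the 16 arrays fell into unlike sets, given as a description over arrays that share their group, slide and time. Fos, Fosb, Egr1, Atf3 and Junb were correlated with each other at r of 0.854 to 0.988, the highest being Fos with Egr1. Fosl2 ran against them (r of -0.930 with Fos). Myc was close to unrelated to Fos (0.0176) and most like Fosl1 (0.780) and Egr2 (0.760) among the 10. Over all genes tested, the 3 most like Fos were Pnrc1 (r 0.992), Egr1 and Srrm4os (0.982), and those most like Fosb were Apol8 (0.986), Pnrc1 (0.980) and Fos (0.979). For Egr1 they were Xirp2 (0.988), which encodes a muscle actin-binding protein, Fos and Srrm4os (0.986). For Atf3 they were Trib1 (0.970), Chrdl2 and Klf9 (both 0.968). For Fosl2 they were Havcr2, Adm (both 0.991) and Akap12 (0.990), and for Fosl1 Nrcam (0.927), Wnt11 (0.920) and 5830403F22Rik (0.912). Jun was most like Trank1 (0.923), Hist1h2bg (0.917) and Gm12298 (0.902). Egr2 was most like Ier3 (0.929), Vasn (0.928) and Adamts1 (0.925). Myc was most like Ykt6 (0.922) and 2 probes without a gene symbol.

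Other immediate early genes, a list of 20 of which 18 were tested, were mixed as well. Of these 18, myofiber-associated myoblasts had 9 called higher and 3 called lower at 48 hr, then 9 higher and 4 lower at 72 hr. The shares of all genes tested were 16.1% and 27.0% at 48 hr, and 11.5% and 15.6% at 72 hr. The list medians were 1.02 and 0.72 on the log2 scale. Nr4a1, an orphan nuclear receptor, measured 12.39 to 13.17 in dispersed and 15.32 to 15.97 in myofiber-associated myoblasts at 48 hr, a log2 difference of 2.75 ± 0.21 (limma, adjusted p = 2.23e-05). Egr4 was higher by 2.59 ± 0.26 at 48 hr, where its dispersed signals were dim, at 5.14 to 5.57. Dusp1, the phosphatase that switches off MAP kinases, was higher by 2.45 ± 0.17 at 48 hr and 1.62 ± 0.18 at 72 hr. At 72 hr Zfp36, which destabilizes cytokine mRNAs, was higher by 1.77 ± 0.25 and Klf4 by 1.72 ± 0.21.

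Ctgf and Cyr61, secreted proteins that are classical targets of YAP and of serum response factor, were among the genes called lower at both times, as was Zfp36l1. Ctgf measured 16.26 to 16.76 in dispersed and 13.03 to 13.32 in myofiber-associated myoblasts at 48 hr, and 16.78 to 17.16 against 11.53 to 12.71 at 72 hr. The log2 difference was -3.33 ± 0.12 at 48 hr (limma, adjusted p = 9.74e-07) and -4.85 ± 0.23 at 72 hr (adjusted p = 7.96e-06). Ctgf (1.53 ± 0.27, adjusted p = 0.00373) and Cyr61 (0.91 ± 0.15, adjusted p = 0.00283) were also the only 2 of the 18 called for the difference between cultures in the change with time. In myofiber-associated myoblasts 2 of the 18 were called lower at 72 hr, Nr4a1 (-1.39 ± 0.25) and Cyr61 (-0.66 ± 0.10), and the list median was -0.675. In dispersed myoblasts it was 0.0196, with Sgk1 (-0.68 ± 0.09) and Zfp36l1 (-0.47 ± 0.06) called lower. Of all genes tested, 3.74% were called higher and 1.74% lower with time in myofiber-associated myoblasts. In dispersed myoblasts these shares were 7.38% and 6.32%, and in the interaction 1.09% and 2.36%. Egr3 and Nr4a3 did not pass the filter on low signal.

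**Figure D5:**
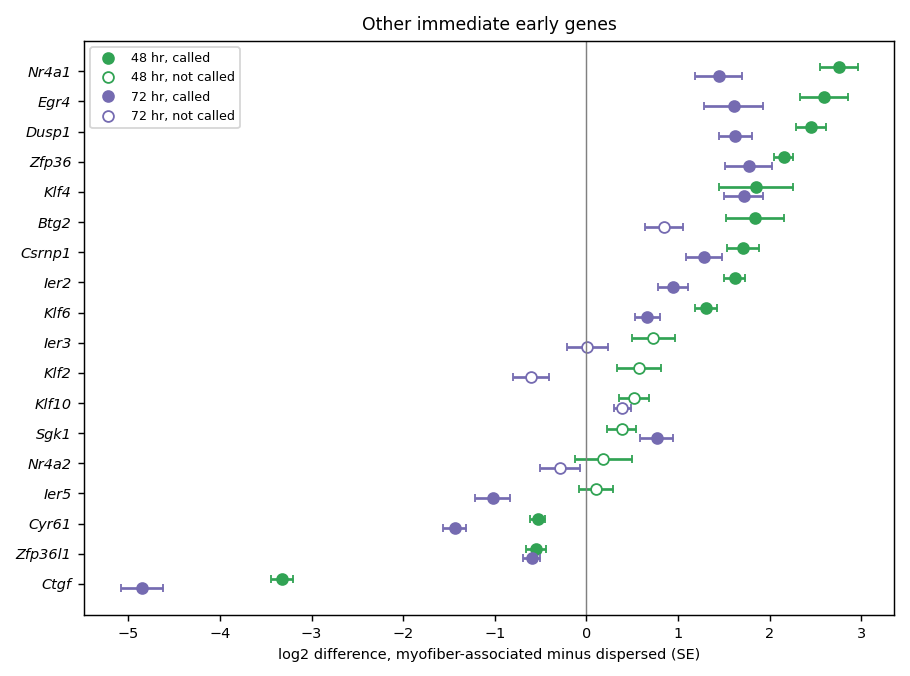
Log2 difference between myofiber-associated and dispersed myoblasts (x axis, bars are SE from limma) for the 18 other immediate early genes tested, at 48 and 72 hr, ordered by the 48-hr value. Filled points have an adjusted p of less than 0.01. Nr4a1, Egr4, Dusp1 and Zfp36 lead at 48 hr and Ctgf lies lowest at both times.

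Among the partners with which FOS and JUN proteins pair, 11 of 12 were tested. At 48 hr 3 of them were called higher and 3 lower with the fiber than without it, and at 72 hr 1 was higher and 2 were lower. Over all genes tested the shares were 16.1% higher and 27.0% lower at 48 hr, and 11.5% and 15.6% at 72 hr. Maf was higher by 2.89 ± 0.37 at 48 hr and 1.19 ± 0.28 at 72 hr, and Atf7 was lower by log2 differences of -2.19 ± 0.18 and -1.12 ± 0.21. The log2 signal of Atf7 on the myofiber-associated arrays was dim, at 5.27 to 6.35, near the filter at 5. Maff was lower at 72 hr (-0.85 ± 0.15). Batf3, a partner of JUN in leukocytes, was lower at 48 hr (-1.87 ± 0.12) and rose by 1.41 ± 0.16 from 48 to 72 hr in myofiber-associated myoblasts (limma, adjusted p = 0.00169). It was also called in the interaction (-1.95 ± 0.21, adjusted p = 0.000296). Its myofiber-associated signals at 48 hr, 5.19 to 5.60, were dim as well. Jund had differences of 0.12 at 48 hr and 0.76 at 72 hr (adjusted p = 0.521 and 0.0112), and of 0.72 with time in myofiber-associated myoblasts (adjusted p = 0.0555). Atf7 fell with time in dispersed myoblasts (-0.79 ± 0.10).

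Regulators upstream of these genes were called lower in shares near those of all genes tested (27.0% at 48 hr and 15.6% at 72 hr). Of 12 serum response and cAMP response regulators, 3 were called lower in myofiber-associated myoblasts at 48 hr (Fhl2, Elk3 and Crem) and 2 at 72 hr (Fhl2 and Crem). Fhl2, a cofactor of serum response factor, had a log2 difference of -1.39 ± 0.14 at 48 hr and -1.77 ± 0.09 at 72 hr, and Elk3, a ternary complex factor, of -1.20 ± 0.19 at 48 hr. Srf itself had log2 differences of 0.06 at 48 hr and -0.37 at 72 hr (adjusted p = 0.584 and 0.0174). In dispersed myoblasts Fhl2 (0.45) and Mkl1 (0.26) rose with time, and Elk3 fell (-0.20).

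Of 13 AP-1 target genes tested, 2 were called higher and 6 lower at 48 hr in the myofiber-associated group, when 16.1% of all genes were called higher and 27.0% lower. The list median was then 0.0545, with 7 of 13 above 0. At 72 hr 0 were called higher and 5 lower by limma, against 11.5% and 15.6% of all genes, and the list median was -1.0. At an unadjusted p of less than 0.05, 1 was higher and 9 were lower. The cytokine gene Il6 measured 12.26, 12.09, 12.17 and 13.40 at 48 hr against 8.61 to 9.34 in dispersed myoblasts, a log2 difference of 3.42 ± 0.30 (limma, adjusted p = 5.01e-05). At 72 hr its difference was 0.85 ± 0.43 (adjusted p = 0.135). The other gene called higher at 48 hr was Hmox1 (1.08 ± 0.26), while Ccnd1, cyclin D1, was lower (-0.76 ± 0.10). At 72 hr Mmp10 (-2.25 ± 0.42), the urokinase gene Plau (-1.27 ± 0.15) and its receptor Plaur (-1.24 ± 0.09) were lower. The collagenase gene Mmp13 rose with time in dispersed myoblasts by 2.32 ± 0.22 (adjusted p = 0.000267), together with Ccnd1 (0.37) and Cd44 (0.35). On myofiber-associated arrays it was uneven, at 6.69, 5.78, 6.51 and 11.94 at 48 hr. Spp1, osteopontin, rose from 48 to 72 hr within myofiber-associated myoblasts by 1.0 ± 0.10, and at 72 hr the cultures differed by 0.16 (adjusted p = 0.287).

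Genes of the MYC network and MYC targets were called lower at 48 hr in shares near the 27.0% of all genes tested. Max, the partner of MYC, was lower in myofiber-associated myoblasts by log2 differences of -0.62 ± 0.10 at 48 hr and -0.49 ± 0.11 at 72 hr. Of the 10 network genes tested (of 12), 3 were called lower at 48 hr (Mxd4 by -1.15, Max and Mxd3 by -0.32), and 1 was called higher and 2 lower at 72 hr (Mnt by 0.50, Mxd1 by -0.82, and Max). Mxd4, an antagonist of MYC, rose with time in myofiber-associated myoblasts by 0.80 ± 0.11 (limma, adjusted p = 0.00395) and was called in the interaction (-1.19 ± 0.18). Of 16 MYC targets 4 were called lower in myofiber-associated myoblasts at 48 hr, led by Nme1 (-0.59), Cdk4 (-0.56) and the nucleolin gene Ncl (-0.48), and Wdr43 (-0.29) at 72 hr. No MYC target was called with time in either culture by limma; at an unadjusted p of less than 0.05, 1 was higher and 2 were lower in myofiber-associated myoblasts, and 2 and 3 in dispersed. Odc1, ornithine decarboxylase, was called in the interaction (0.41 ± 0.07). Of all genes tested, 7.38% were called higher and 6.32% lower with time in dispersed, and 3.74% and 1.74% in myofiber-associated myoblasts. In the interaction the shares were 1.09% and 2.36%.

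Genes of the integrated stress response, in which ATF3 acts below ATF4, were partly higher in myofiber-associated myoblasts at 48 hr. Of 10 tested, 4 were called higher and 1 lower at 48 hr, and 2 were called higher at 72 hr. Among all genes tested 16.1% were called higher and 27.0% lower at 48 hr, and 11.5% and 15.6% at 72 hr. Ppp1r15a (GADD34), which restarts translation, was higher by 2.29 ± 0.15 and 1.90 ± 0.17, and Chac1 by 1.98 ± 0.10 and 1.46 ± 0.26. Atf4 was higher by 0.39 ± 0.07 at 48 hr (limma, adjusted p = 0.00174) and by 0.13 at 72 hr (adjusted p = 0.113), and Sesn2 was lower at 48 hr (-0.67 ± 0.15). In dispersed myoblasts Chac1 (-0.46), Trib3 (-0.41) and Asns (-0.20) fell with time, as Atf3 did. Of 8 heat shock genes tested (of 9), 3 were called higher and 2 lower at 48 hr, and 1 and 1 at 72 hr. The same shares of all genes stand beside these counts. Hspb1 was higher by 2.38 ± 0.13 and Bag3 by 1.62 ± 0.15 at 48 hr, and Bag3 by 0.91 ± 0.14 at 72 hr. Dnajb1 was lower by log2 differences of -0.46 and -0.41, and Hspb1 rose with time in dispersed myoblasts (0.44 ± 0.05).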

How the data were processed

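Expression in 16 myoblast preparations, 4 per culture and time, was read on Agilent mouse arrays with 1 dye. The authors deposited scanner files, whose intensity is background-corrected per the file headers (Agilent Feature Extraction 11.0.1.1), and log2 ratios of each 72-hr array to its culture's 48-hr mean. Their limma version is not given in the sources used here.

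The log2 of the processed signal was taken, control and outlier spots were left out, and loess (span 0.3, 4 iterations) fitted every array to its culture's 48-hr mean, followed by quantile normalization over all 16. Spots of the same probe were averaged. Each gene took its brightest probe and was tested where the median over arrays was at least 5 on the log2 scale. Of the gene spots, 1849 carry different gene names on the 2 slides, none of them a spot of the 10 genes; the names of the myofiber-associated slide were used.

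Comparisons used limma (two-sided, Benjamini-Hochberg over all genes, threshold 0.01, also 0.05), on the 8 arrays of each comparison or 16 for the interaction, and exact permutation tests. Intervals are 95%. Correlations and promoter motifs are descriptions. The labels state that preparations were independent. The script was tested on simulated data. The genes, lists and named genes (all 10 genes; of each list, the counts called and at most 3 called genes per comparison with the largest differences, plus Jund, Egr3, Nr4a1, Dusp1, Srf, Atf4 and Max; the 3 most correlated genes) were chosen with earlier results of these data known. Some genes that this rule names are not reported here. Ctgf, Cyr61, Il6 and Mmp13 are described further because of their values. Alternatives were normexp (offset 50), scaling to the 75th percentile, quantile alone, loess to all 16 arrays, other filters, the mean of all probes, the slide row as a block, 1 fit of all arrays, the deposited ratios, and each array left out. Software was limma 3.58.1 in R 4.3.3 (with data.table version 1.17.8), and pandas 2.3.3, numpy 2.4.6 and matplotlib 3.10.9 in Python 3.11.15.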

Additional observations from a re-analysis of the deposited data

Results flagged for a closer look

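The group means of Fosl2 moved in opposite directions in the cultures, but the times overlapped within each culture. Neither change passed 0.01 in limma (adjusted p = 0.0454 in dispersed and 0.0921 in myofiber-associated myoblasts). All 4 dispersed 72-hr arrays lay above the dispersed 48-hr mean and all 4 myofiber-associated 72-hr arrays lay below theirs, and the difference between the changes was 0.724 on the log2 scale. In limma its adjusted p was 0.0270, which does not pass 0.01. The dim Fosl2 probe gave 1.0 ± 0.29 (limma, adjusted p over all probes = 0.0383). In the 40 groups of 4 that the 10 genes form, no array was flagged by its gap to the next array over the range. With 4 arrays, only a gap that fills most of the range is flagged. The absence of a flag therefore does not show that no array deviated.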

How the results depend on the processing

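Fos, Fosb, Egr1, Atf3, Junb and Fosl2 kept their direction and their call between the cultures at both times under every alternative run. Of the 10 genes, 7 were called at 48 hr and 7 at 72 hr, and leaving out 1 array gave 6 to 8 and 7 to 8. With normexp the median of all genes at 48 hr was -0.0204, against -0.123 in the main run. Its offset let all 34836 genes pass the filter on low signal, so the 2 medians cover different genes. Without the filter, under the main normalization, the median was -0.0517. Calls with time were less stable. In dispersed myoblasts 1 gene was called, and 3 at an adjusted p of less than 0.05, 2 with the slide row as a block (Atf3 and Fosb), and 0 in 1 fit of all 16 arrays (Atf3, adjusted p = 0.0245). Leaving out 1 array gave 1 to 3, with 3 without 72-hr replicate 8. In myofiber-associated myoblasts 0 were called, and 5 at 0.05, 5 in 1 fit of all arrays, and 3 with the deposited ratios (Atf3, Fosl1 and Myc). Leaving out 1 array gave 0 to 3. For the difference between the cultures in the change, 0 were called, and 3 at 0.05 and 3 with the deposited ratios (Fosl1, Fosl2 and Myc). Leaving out 1 array gave 0 to 2, with 1 without 48-hr replicate 10 (Myc) and 2 without 72-hr replicate 4 (Junb and Myc). These alternatives are not all alike in the spread they use. The deposited ratios hold 72-hr arrays only, so the spread of the 48-hr arrays does not enter their test. For the change of Atf3 in myofiber-associated myoblasts the SE was 0.224 with them, against 0.340 in the main fit. The 1 fit of all arrays shares 1 estimate of the spread between the cultures. The cause of the changed calls was not tested.

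Signs turned only for differences that no test called. Jun in dispersed myoblasts was 0.019 with time under scaling to the 75th percentile, and its difference in change was 0.015 with normexp and 0.060 under that scaling. Leaving out 1 array gave, for the change in dispersed myoblasts, -0.0054 to 0.13 for Fos, -0.10 to 0.017 for Fosl1 and -0.21 to 0.0075 for Egr1. For the change in myofiber-associated myoblasts it gave -0.40 to 0.017 for Fos, -0.43 to 0.14 for Fosb and -0.15 to 0.12 for Jun. For the difference in change it gave -0.17 to 0.11 for Jun and -0.069 to 0.42 for Atf3. Between the cultures it gave -0.16 to 0.037 for Fosl1 at 48 hr and -0.25 to 0.070 for Egr2 at 72 hr. No paired analysis was possible because the groups compared within a culture share no replicate numbers, and a number shared between cultures names different preparations.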
